A study of Mus musculus with 16 samples.

Results

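The TNF superfamily ligands described here are Tnf, Lta, Ltb, Tnfsf9, Tnfsf14, Tnfsf4 and Tnfsf13b, 7 genes chosen by name among the non-control probes of a mouse whole-genome array, of 17082 genes tested in all. They are covered by 8 probes, 2 of them for Tnfsf13b and 1 for each other gene, and all 7 genes had a probe well above background in 1 channel on 3 or 4 arrays of some group. RNA came from mouse bone-marrow-derived mast cells, which were marrow cells grown for over 4 weeks with IL-3 (5 ng/ml), SCF (40 ng/ml) and 10% FCS until more than 90% carried the IgE receptor and Kit. Every culture then received either control goat IgG or a polyclonal goat agonist antibody against mouse TIM-3 (15 ug/ml each), a surface receptor of immune cells encoded by Havcr2. Resting cells received the antibody alone for 2 h or 16 h. Activated cells were first loaded with anti-DNP IgE (5 ug/ml) for 1 h and then given the antigen DNP-HSA (100 ng/ml) together with the antibody for 2 h or 16 h. Each of the 16 arrays held RNA of anti-TIM-3-treated cells in Cy5 and of IgG-treated cells in Cy3, with 4 arrays in each of the 4 groups. The labels give neither the strain nor separate cultures or animals as the source of the replicates, so p-values cover the spread between samples alone, and that may be technical. The dyes were never exchanged. In the ratio of a single group the antibody's effect and dye bias cannot be told apart. A bias equal on all arrays and at all intensities drops out of differences between groups.

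Most TNF superfamily ligands are made as membrane proteins, and many are also cut from the surface and act as soluble cytokines. The ligands form trimers and bind receptors of the TNF receptor superfamily. These receptors signal through TRAF adaptors to NF-kappaB or, for some, through death domains to caspases. Tnf encodes TNF, a cytokine that mast cells store and also make anew after IgE receptor crosslinking. Lta and Ltb encode lymphotoxin alpha and beta, which act as a heterotrimer on the lymphotoxin beta receptor. Tnfsf14 (LIGHT) binds that receptor and HVEM. Tnfsf4 (OX40 ligand) and Tnfsf9 (4-1BB ligand) co-stimulate T cells, and Tnfsf13b encodes BAFF, a survival factor of B cells.

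Ltb, Tnf and Lta lie next to each other in this order on chromosome 17, and Tnfsf9 and Tnfsf14 flank Cd70 elsewhere on that chromosome. The 250 bases before the transcription start are shown for Tnf, whose ratio moved most, for its neighbour Ltb, and for Tnfsf14, another gene that antigen raised. They are from RefSeq (GRCm38.p6), 5′ to 3′ on the gene's strand, and lie at chr17:35202008-35202257 (minus strand) for Tnf, chr17:35194257-35194506 (plus strand) for Ltb and chr17:57194182-57194431 (minus strand) for Tnfsf14. Capitals mark matches, searched on both strands, to the TATA box letters TATAAA, to the core of NFAT sites, which reads GGAAA, to the AP-1 motif or to the NF-kappaB consensus. The AP-1 motif was searched as TGANTCA.
Tnf: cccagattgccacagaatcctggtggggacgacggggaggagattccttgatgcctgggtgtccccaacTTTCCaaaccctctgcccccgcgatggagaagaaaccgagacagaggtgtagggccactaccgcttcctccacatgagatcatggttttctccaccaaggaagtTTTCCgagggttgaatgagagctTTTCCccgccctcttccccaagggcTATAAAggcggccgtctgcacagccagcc
Ltb: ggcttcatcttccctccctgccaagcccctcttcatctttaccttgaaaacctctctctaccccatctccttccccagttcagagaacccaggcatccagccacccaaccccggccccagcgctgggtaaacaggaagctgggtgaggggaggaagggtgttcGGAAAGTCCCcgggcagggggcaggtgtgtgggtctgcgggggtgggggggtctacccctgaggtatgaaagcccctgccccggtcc
Tnfsf14: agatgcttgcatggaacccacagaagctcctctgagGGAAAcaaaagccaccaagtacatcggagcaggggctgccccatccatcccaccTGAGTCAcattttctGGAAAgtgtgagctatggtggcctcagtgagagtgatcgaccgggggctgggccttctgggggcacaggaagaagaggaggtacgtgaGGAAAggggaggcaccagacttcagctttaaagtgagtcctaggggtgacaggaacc
The Tnf stretch held 1 TATAAA, which began 29 bases before the start, and 3 NFAT cores. That of Ltb held 1 NF-kappaB match, which overlaps its single NFAT core, and that of Tnfsf14 held 1 AP-1 match and 3 NFAT cores. Among the 32851 promoter stretches of the same length in the table, 12.37% held TATAAA, 55.57% an NFAT core, 6.75% an AP-1 match and 7.25% an NF-kappaB match. The CRE (TGACGTCA, 1.55% of stretches) and Egr (GCGNGGGCG, 4.70%) motifs had no match in these 3 stretches or in that of Lta. Tnfsf13b has an entry in the table too, and Tnfsf4 and Tnfsf9 were not matched, so that 5 of 7 members were.

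The share of spots well above background ran from 53.7% to 62.1% by array in the Cy3 channel and from 54.8% to 67.7% in the Cy5 channel. By the barcodes in the file headers the arrays lie on 4 slides, and every slide holds 3 of the 4 groups. Mast cell markers were well above background in Cy3 on all 16 arrays for 13 of 13 genes, and basophil markers for 3 of 3. So were 6 of 7 macrophage and dendritic cell markers, with a summed net Cy3 intensity of 3182 to 9654 over the arrays of resting cells at 2 h, beside 251798 to 414683 for the mast cell list. Of 5 neutrophil markers on the array 2 were above background on all arrays and Elane and Camp on 0. Of 3 eosinophil markers Siglecf was above background on all 16 arrays, Prg2 on 10 and Epx on 1. Of 9 T, B and NK cell markers 3 were above background on all arrays, as were 1 of 2 erythroid and 1 of 4 fibroblast markers. These are bulk samples, so fewer cells of a type and less RNA per cell cannot be told apart. Ratios of 3 arrays, resting replicate 3 at 2 h and resting replicates 1 and 3 at 16 h, resembled each other across the groups. These 3 arrays were picked after seeing the data, and their likeness was not tested. Without them 4 of 98 values of ligand genes lost the call and 1 gained one. Most of these are given both ways.

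Tnf was the ligand gene with the widest range. Cy3 and Cy5 levels below are normalized intensities in arbitrary units, and ratios are the log2 of Cy5 divided by Cy3, so a positive ratio means more RNA with anti-TIM-3. In activated cells at 2 h the Cy3 level of IgG-treated cells was 4151, 5153, 4611 and 4527 on the 4 arrays, and the Cy5 level of anti-TIM-3-treated cells was 23773, 26118, 22279 and 27758. Every anti-TIM-3 value lay above every IgG value, and the geometric means were 24893 and 4597. The log2 ratios of these arrays were 2.52, 2.34, 2.27 and 2.62, a mean of 2.44 ± 0.16 (SD, n = 4) or 5.42-fold (adjusted p = 2.07e-14). Only 7 of the 17082 genes had a higher mean ratio in this group, Tnf being at rank 8. The direction was the other way at 16 h. Activated cells then had Cy3 levels of 737, 698, 786 and 775 and Cy5 levels of 516, 472, 570 and 524, again with no overlap. The log2 ratios were -0.52, -0.56, -0.46 and -0.56, a mean of -0.53 ± 0.05 (SD, n = 4), which put the level with anti-TIM-3 at 69.4% of that with IgG (adjusted p = 1.06e-05). This fall was no longer called where each array was only centred on its median without a loess curve (-0.09, adjusted p = 0.319). That scaling moves the median gene to 0.21 in resting and 0.22 in activated cells at 2 h and to 0.30 and 0.39 at 16 h, and Tnf lay 0.48 below it in activated cells at 16 h.

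Resting cells showed no called change of Tnf. At 2 h the log2 ratios were 0.00, -0.11, 0.33 and 0.00 (mean 0.06 ± 0.19, adjusted p = 0.624) and at 16 h 0.18, 0.10, 0.28 and -0.01 (mean 0.14 ± 0.12, adjusted p = 0.134). Median centring alone gave 0.39 (adjusted p = 0.00058) and 0.51 (adjusted p = 2.64e-05), which is 0.17 and 0.21 above that scaling's median gene. The 95% intervals of the means ran from -0.08 to 0.19 and from 0.00 to 0.27. The plot of Tnf levels by group shows both channels and the ratio on every array.

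**Figure D1:**
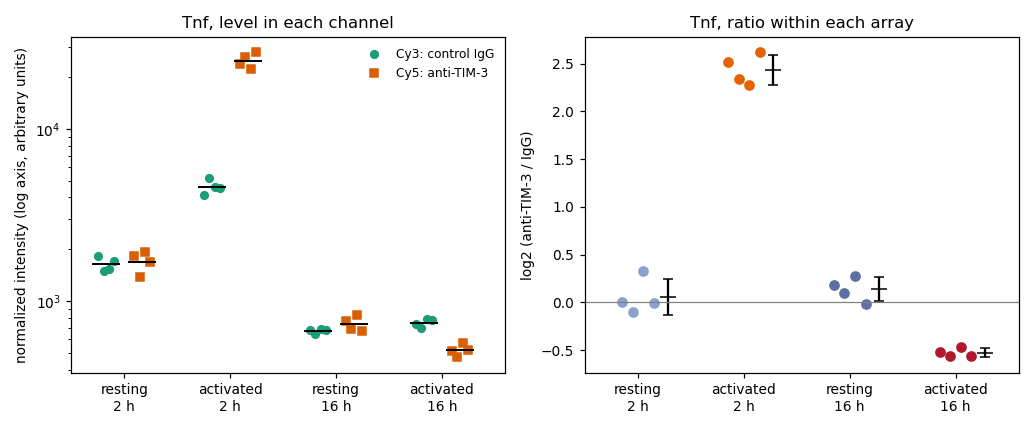
Tnf in the 4 groups of 4 arrays. Left, normalized intensity on a log axis in Cy3 (IgG, circles) and Cy5 (anti-TIM-3, squares), with the geometric mean as a line; right, the log2 ratio on each array with the mean and SD in black. The 4 ratios of activated cells lie between 2.27 and 2.62 at 2 h and between -0.56 and -0.46 at 16 h, the latter below 0 with loess and at a mean of -0.09 with median centring.

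The difference between activated and resting cells, in which an equal dye bias cancels, was 2.38 at 2 h (95% interval 2.19 to 2.57, adjusted p = 1.1e-11) and -0.67 at 16 h (-0.86 to -0.47, adjusted p = 0.000169). On the slides that hold both groups it was 2.43 and 2.12 at 2 h, and -0.70 and -0.73 at 16 h. Both differences were also called with median centring, at 2.64 (adjusted p = 2.4e-11) and -0.60 (adjusted p = 0.00297). In activated cells the ratio at 16 h minus that at 2 h was -2.96 (-3.16 to -2.77, adjusted p = 7.87e-13), and -2.91 within the single slide that holds both. On the log2 scale the 2 h rise was 4.62 times the 16 h fall in the loess ratios, 3.58 times in the activated minus resting differences, and 5.86 times with median centring when its median gene is set to 0. Over the same times the ratio in resting cells differed by 0.08 (-0.11 to 0.27, adjusted p = 0.63). Tnf is printed as 10 spots on each array, whose SD within an array was 0.02 to 0.04, smaller than the spread between arrays. Leaving out any 1 array kept all of these calls, with the 2 h ratio of activated cells between 2.38 and 2.49 and the 16 h ratio between -0.55 and -0.51.

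The lymphotoxin genes beside Tnf had smaller ratios and different patterns. Lta was dim, with normalized intensities of 103 to 138 over all arrays and channels, which include the added offset of 50, so its changes are understated. Its log2 ratio in activated cells at 2 h was 0.14, 0.23, 0.22 and 0.31 (mean 0.22 ± 0.07, adjusted p = 6.2e-05). At 16 h it was 0.24, 0.10, 0.10 and 0.21 (mean 0.16 ± 0.07, adjusted p = 0.00135), so that Lta was called higher at both times. With median centring it was at 0.29 and 0.23 (adjusted p = 6.49e-06 and 4.29e-05), which is 0.06 above that scaling's median gene at 2 h and -0.16 relative to it at 16 h. In resting cells it was 0.02 ± 0.02 at 2 h (adjusted p = 0.717) and 0.04 ± 0.03 at 16 h (adjusted p = 0.479), and the groups did not overlap at 2 h or at 16 h. The difference from resting cells was 0.20 at 2 h (adjusted p = 0.0146), lost without activated replicate 4 (0.17, adjusted p = 0.0624), and 0.12 at 16 h (0.03 to 0.22, adjusted p = 0.11). Lta too has 10 spots per array, with an SD of 0.03 to 0.08.

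Ltb, which encodes the membrane anchor of the lymphotoxin heterotrimer, was not called at 2 h. Its ratios were 0.00, 0.12, 0.17 and 0.00 in activated cells (mean 0.07 ± 0.08, adjusted p = 0.489) and 0.40, 0.02, -0.12 and 0.01 in resting cells (mean 0.08 ± 0.23, adjusted p = 0.548), whereas median centring gave 0.75 (adjusted p = 6.56e-08) and 0.59 (adjusted p = 1.79e-06), above its median gene by 0.53 and 0.38. At 16 h the 4 activated arrays were at -0.61, -0.48, -0.54 and -0.58 (mean -0.55 ± 0.05, adjusted p = 2.72e-05), all below the 4 resting arrays at -0.43, -0.06, -0.47 and -0.10. With median centring the activated mean turned to 0.14 (adjusted p = 0.0752), 0.25 below that scaling's median gene. The resting mean of -0.26 ± 0.21 passed (adjusted p = 0.0187), but fell short with replicate 1 left out (-0.21, adjusted p = 0.13) and with replicate 3 left out (-0.20, adjusted p = 0.142), was -0.08 without all 3 arrays that resemble each other (adjusted p = 0.678) and turned to 0.28 with median centring. In activated cells the ratio at 16 h minus that at 2 h was -0.62 (-0.84 to -0.40, adjusted p = 0.000406), and -0.62 within the single slide that holds both. In resting cells it was -0.34 (adjusted p = 0.105), and passed without resting replicate 3 at 2 h (-0.41, adjusted p = 0.0306). The difference between activated and resting cells was -0.0043 at 2 h (-0.22 to 0.22, adjusted p = 0.991) and -0.29 at 16 h (-0.51 to -0.07, adjusted p = 0.1). The latter passed without the 3 resting arrays (-0.47, adjusted p = 0.0101).

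Marker genes of several cell types moved in activated cells at 16 h, the group in which Tnf and Ltb were lower. Of all genes tested, 16.9% were called higher and 13.2% lower in that group. Of 13 mast cell markers 9 were higher and 2 lower with anti-TIM-3, among them the IL-33 receptor gene Il1rl1 at 0.89, the IgE receptor gene Fcer1a at 0.86 and the tryptase gene Tpsb2 at -0.57 (0.26 with median centring, -0.13 relative to its median gene). With median centring all 9 of the higher and 1 of the 2 lower lay on the same side of the median gene. Mast cell markers moved in the other groups too. At 2 h 5 were higher and 0 lower in resting cells, and 4 and 0 in activated cells. In resting cells at 16 h 7 were higher and 1 lower, with Fcer1a at 1.33 and Il1rl1 at 0.83. Of all genes, 7.07%, 17.1% and 11.7% were called higher in these 3 groups, and 6.92%, 16.3% and 9.95% lower. Of 7 macrophage and dendritic cell markers 5 were lower and 1 higher. Cd14, a lipopolysaccharide co-receptor of monocytes and macrophages, was at -0.91, the CSF1 receptor gene Csf1r at -0.55 and Itgax, the CD11c integrin chain of dendritic cells, at 0.49. In resting cells at 16 h these 3 were at -0.08, -0.12 and -0.02. With median centring Cd14 was at -0.47 and Csf1r at -0.17 in activated cells, Cd68 lost its call (-0.53 to -0.0039, adjusted p = 0.961) and Adgre1 changed sign (-0.36 to 0.26), and all 5 lay below that scaling's median gene. The summed net Cy3 intensity of the list was 3182 to 9654 in resting and 3557 to 7016 in activated cells at 2 h, and 4082 to 7965 and 5093 to 8499 at 16 h. Of the neutrophil markers 1 was lower in activated cells at 16 h, Mpo at -0.60, with a summed level of the list of 271 to 371 beside 355 to 891 in resting cells. The part of these cells in the Tnf and Ltb values was not tested.

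Tnfsf14 and Tnfsf4 were higher with anti-TIM-3 in activated cells. The log2 ratio of Tnfsf14, whose product LIGHT binds HVEM on T cells, was 0.28, 0.21, 0.32 and 0.37 in activated cells at 2 h (mean 0.30 ± 0.07, adjusted p = 1.79e-05). Resting cells at 2 h lay on the other side at -0.31, -0.12, -0.17 and -0.07 (mean -0.17 ± 0.10, adjusted p = 0.00815), a direction that turned to 0.37 with median centring, 0.16 above its median gene, and a call that was lost without replicate 1 (-0.12, adjusted p = 0.0773). At 16 h the means were 0.09 ± 0.04 in activated cells (adjusted p = 0.0982) and -0.13 ± 0.05 in resting cells (adjusted p = 0.0223), the latter lost without any 1 of its replicates (adjusted p of 0.0525 to 0.0865), -0.18 without the 3 resting arrays (adjusted p = 0.107) and 0.40 with median centring, 0.11 above its median gene. In activated cells median centring gave 1.085 at 2 h and 0.83 at 16 h (adjusted p = 1.92e-10 and 2.76e-09). These values lay 0.86 and 0.44 above its median gene, so the missing call at 16 h depended on the scaling. The difference between activated and resting cells was 0.46 at 2 h (0.35 to 0.58, adjusted p = 2.64e-05), with 0.56 and 0.51 within slides, and 0.22 at 16 h (0.10 to 0.33, adjusted p = 0.0175), with 0.20 and 0.20 within slides. Median centring kept both calls, at 0.72 and 0.42 (adjusted p = 3.86e-05 and 0.00567). The 16 h difference was lost without activated replicate 1 (0.20, adjusted p = 0.0666). With Agilent's processed signals it was 0.21 (adjusted p = 0.056). In activated cells the ratio at 16 h minus that at 2 h was -0.21 (adjusted p = 0.0124), and -0.02 with Agilent's processed signals (adjusted p = 0.858).

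Tnfsf4, the OX40 ligand gene, kept its rise to the late time. In activated cells its ratios were 0.29, 0.35, 0.33 and 0.39 at 2 h (mean 0.34 ± 0.04, adjusted p = 7.21e-05) and 0.42, 0.57, 0.37 and 0.42 at 16 h (mean 0.45 ± 0.09, adjusted p = 4.95e-06). The resting arrays were at -0.04, 0.31, -0.07 and 0.10 at 2 h (adjusted p = 0.392) and at -0.02, -0.02, -0.16 and -0.04 at 16 h (adjusted p = 0.427). The difference from resting cells was 0.51 at 16 h (0.36 to 0.66, adjusted p = 0.000224) with no overlap, and 0.52 and 0.52 within slides. At 2 h it was 0.27 (0.12 to 0.42, adjusted p = 0.0348), with resting replicate 2 inside the activated range, and 0.36 and 0.43 within slides. The call was kept in 2 of 8 fits without 1 array, and lost without resting replicates 1, 3 or 4 or activated replicates 2, 3 or 4, with values of 0.22 to 0.28 and adjusted p of 0.0583 to 0.12. The change of the ratio with time in activated cells was 0.11 (-0.04 to 0.26, adjusted p = 0.354).

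Tnfsf9, the 4-1BB ligand gene, had ratios near 0. Activated cells at 2 h were at -0.17, -0.08, -0.01 and -0.26 (mean -0.13 ± 0.11, adjusted p = 0.0294), which was lost without replicates 1, 2 or 4 (adjusted p of 0.101, 0.0509 and 0.212) and with the slide as a block (-0.12, adjusted p = 0.122), and was at 0.07 with median centring, -0.15 relative to its median gene. The other 3 group means ran from -0.01 to 0.07, with adjusted p of 0.282 to 0.914, and were at 0.25 to 0.28 with median centring, which is -0.11 to 0.04 relative to its median gene. Tnfsf13b was at the limit of detection. In Cy3 the brighter of its probes was well above background on 0 or 1 of the 4 arrays of each group, and it was kept through Cy5 in resting cells at 2 h, on 3 of 4 arrays. Its normalized intensities of 74 to 89 consist mostly of the added offset of 50, so no fold is given.

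**Figure D2:**
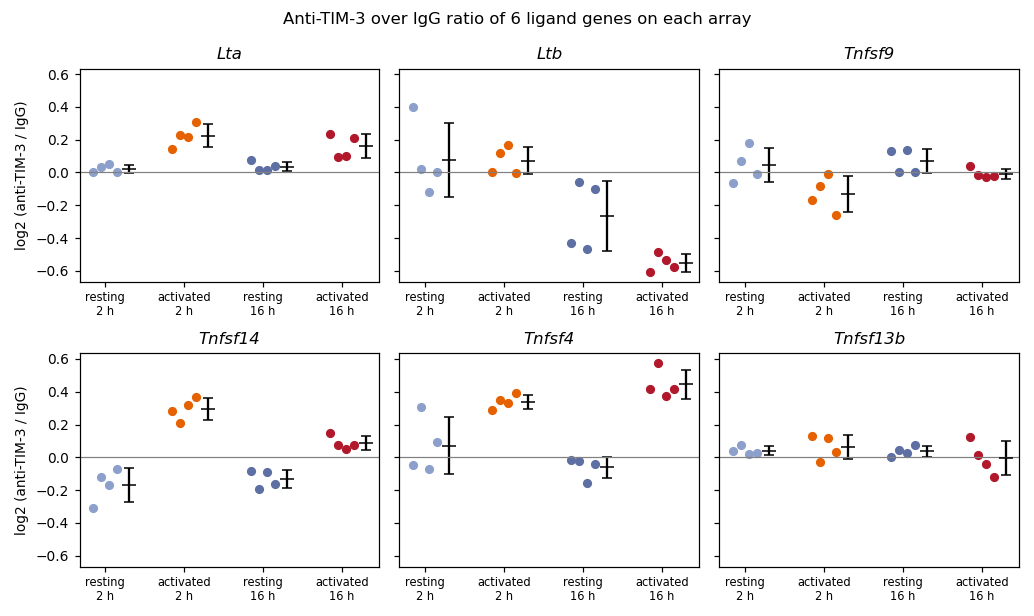
Log2 ratio of anti-TIM-3 over IgG on each of the 16 arrays for the 6 other ligand genes, with the mean and SD of each group in black (n = 4). With loess normalization Ltb at 16 h lies lowest, at -0.61 to -0.48 in activated cells, a direction that turns with median centring, and Tnfsf4 in activated cells at 16 h lies between 0.37 and 0.57.

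Counted over the family, 4 of 7 ligand genes were higher and 1 lower with anti-TIM-3 in activated cells at 2 h, where 33.3% of all genes tested were called, 17.1% higher and 16.3% lower. At 16 h 2 were higher and 2 lower, beside 30.1% of all genes, 16.9% higher and 13.2% lower. In resting cells 1 was lower at 2 h, beside 14.0% of all genes called, 7.07% higher and 6.92% lower. At 16 h 2 were lower, beside 21.6%, 11.7% higher and 9.95% lower. In resting cells limma called 0 ligand genes higher at either time, and 0 at 2 h and 1 at 16 h (Tnf) had an unadjusted p under 0.05 in that direction. Fits of the compared groups alone called 0 ligand genes in resting cells at both times, beside 375 of 17081 genes at 2 h and 1729 of 17081 at 16 h. The split depended on the scaling. Median centring called 5 higher and 0 lower in activated cells at 2 h, and 5 and 0 in resting cells at each time. In activated cells at 16 h it called 4 higher and 1 lower. The lower gene was the dim Tnfsf13b (adjusted p = 0.00487), while Tnf and Ltb were not called there. Under that scaling 64.8% and 79.4% of all genes were called in activated cells, and 61.3% and 73.2% in resting cells, at 2 h and 16 h. The median ratio of the 7 was 0.22 in activated cells at 2 h and -0.01 at 16 h, and the median of all genes was 0.00 and 0.01.

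A dye bias equal on all arrays and at all intensities drops out of differences between groups. Whether it was equal was not tested. The response of 4 ligand genes, Tnf, Lta, Tnfsf14 and Tnfsf4, was higher in activated than in resting cells at 2 h, beside 5.58% of all genes called, 3.59% higher and 1.99% lower. Limma called 0 lower, with 1 (Tnfsf9) at an unadjusted p under 0.05. At 16 h the response of Tnfsf14 and Tnfsf4 was higher and that of Tnf lower, beside 8.58% of all genes, 4.71% higher and 3.87% lower. Between the times the response of activated cells was lower at 16 h for 3 ligand genes, Tnf, Ltb and Tnfsf14, beside 17.2% of all genes, 9.14% higher and 8.05% lower. For resting cells limma called 0 ligand genes between the times, beside 0.287% of all genes, 0.0878% higher and 0.199% lower, and 1 (Ltb) had an unadjusted p under 0.05. That share moves with single arrays: without resting replicate 3 at 2 h, 11.5% of all genes were called and 1 ligand gene, Ltb at -0.41 (adjusted p = 0.0306). Median centring gave the same counts of ligand genes for these 4 comparisons, but other shares of all genes. For activated minus resting cells it called 4.75% of all genes at 2 h and 13% at 16 h. Between the times it called 31.2% in activated and 1.75% in resting cells.

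IgE and antigen alone, read in the Cy3 channel of IgG-treated cells, raised 4 ligand genes at 2 h and lowered 1, beside 42.9% of all genes called, 15.3% higher and 27.6% lower. Tnf rose from 1834, 1491, 1531 and 1701 in resting cells to the 4151 to 5153 given above, a log2 difference of 1.49 (95% interval 1.34 to 1.65, 2.81-fold, adjusted p = 1.24e-10). Tnfsf4 rose by 1.66 (3.17-fold, adjusted p = 2.54e-12), from 1632 to 1911 in resting cells to 5160 to 5596. For Tnfsf14 the change was 1.55 (2.92-fold, adjusted p = 1.59e-11), from 12051 to 14332 to 35363 to 40356. Ltb rose by 0.94 (1.91-fold, adjusted p = 2.97e-06), from 8319 to 11844 to 16483 to 20837. None of these ranges overlapped. Tnfsf9 moved the other way by -0.27 (adjusted p = 7.07e-05), from 329 to 350 down to 276 to 290, also with no overlap. Lta was at 0.10 (adjusted p = 0.051), and passed without resting replicate 1 (0.12, adjusted p = 0.0273). On slides with both groups the antigen effect was 1.33 and 1.58 for Tnf, 1.72 and 1.49 for Tnfsf4, 1.65 and 1.37 for Tnfsf14, 0.79 and 1.24 for Ltb and -0.21 and -0.26 for Tnfsf9. The summed level of the 3 eosinophil markers was higher as well, at 740 to 875 beside 91 to 238 in resting cells, through Siglecf, while Epx was well above background on 1 of 16 arrays.

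At 16 h the antigen effect in IgG-treated cells was smaller, and 3 ligand genes were higher and, by limma at an adjusted or an unadjusted p under 0.05, 0 lower, beside 12.3% of all genes called, 5.30% higher and 7.02% lower. Tnfsf14 was 0.58 higher (1.49-fold, adjusted p = 2.29e-05), Tnfsf4 0.55 (1.47-fold, adjusted p = 1.44e-05) and Tnfsf9 0.25 (adjusted p = 0.00103), which was 0.28 with an adjusted p of 0.385 without the quantile step between arrays. None of the ranges of these 3 genes overlapped between activated and resting arrays. The value of Tnf was 0.15 (0.00 to 0.31, adjusted p = 0.198), although its activated arrays all lay above its resting arrays, and that of Ltb 0.17 (-0.07 to 0.40, adjusted p = 0.38). Within slides Tnfsf14 was at 0.59 and 0.55, Tnfsf4 at 0.51 and 0.58 and Tnfsf9 at 0.27 and 0.27.

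Cells that received anti-TIM-3 with the antigen, read in Cy5, had a larger antigen effect on Tnf at 2 h and one of opposite sign at 16 h. At 2 h it was 3.87 (3.66 to 4.09, 14.66-fold, adjusted p = 9.94e-14), with 3.76 and 3.69 within slides. At 16 h it was -0.51 (-0.73 to -0.29, adjusted p = 0.00255), with resting arrays at 772, 689, 836 and 675 and activated arrays at 516, 472, 570 and 524, and -0.52 and -0.65 within slides. Without the quantile step between arrays it was -0.49 (adjusted p = 0.138). Tnfsf14 was at 2.01 and 0.80 (adjusted p = 2.72e-12 and 1.61e-06) and Tnfsf4 at 1.93 and 1.06 (adjusted p = 5.6e-12 and 8.27e-08) at 2 h and 16 h. Ltb was at 0.93 (adjusted p = 4.32e-05) and -0.12 (adjusted p = 0.616), Lta at 0.31 (adjusted p = 2.04e-05, and 0.04 with adjusted p = 0.832 without the quantile step) and 0.16 (adjusted p = 0.0172), and Tnfsf9 at -0.44 (adjusted p = 0.000111) and 0.17 (adjusted p = 0.124). The Lta value at 16 h did not pass without activated replicate 4 (0.14, adjusted p = 0.0515) or resting replicate 3 (0.14, adjusted p = 0.0592), nor without the 3 resting arrays (0.14, adjusted p = 0.128). In this channel 5 members were higher and 1 lower at 2 h, and 3 higher and 1 lower at 16 h, beside 45.3% of all genes called at 2 h (17.1% higher, 28.2% lower) and 19.3% at 16 h (9.47% higher, 9.79% lower).

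**Figure D3:**
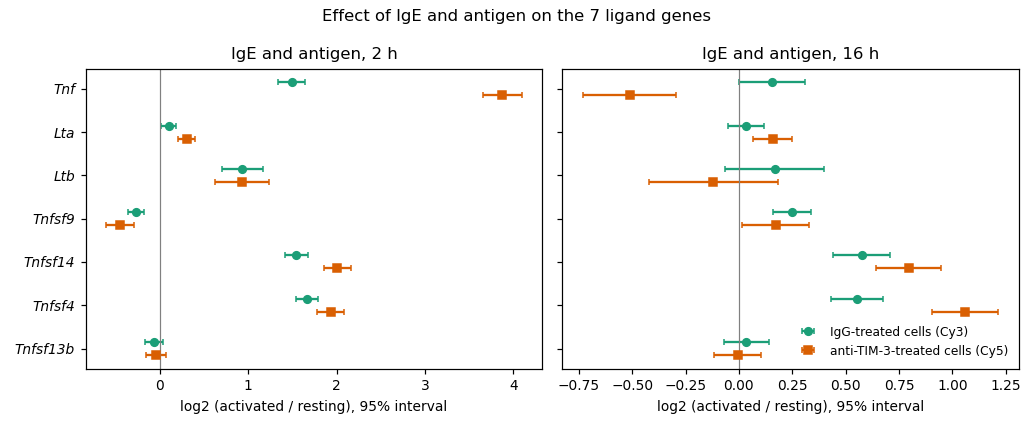
Log2 difference between activated and resting cells for the 7 ligand genes at 2 h (left) and 16 h (right), in IgG-treated cells (Cy3, circles) and anti-TIM-3-treated cells (Cy5, squares), with 95% intervals from the fit of all arrays; the horizontal scales differ. Tnf in Cy5 is at 3.87 at 2 h and at -0.51 at 16 h, and Tnfsf4 in Cy5 is at 1.06 at 16 h.

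Levels in IgG-treated cells also differed between the times, with 5 ligand genes lower at 16 h than at 2 h in resting cells and 5 in activated cells, beside 46.9% of all genes called in resting cells (24.1% higher, 22.8% lower) and 60.1% in activated cells (33.9% higher, 26.2% lower). These comparisons set arrays of different times against each other. On the log2 scale Tnf fell by 1.28 in resting cells (2.43-fold, adjusted p = 6.06e-10), with Cy3 levels of 679, 643, 689 and 680 at 16 h, and fell by 2.62 in activated cells (6.1-fold, adjusted p = 4.62e-14). The 16 h minus 2 h difference of Tnfsf14 was -0.85 in resting cells and -1.82 in activated cells (adjusted p = 1.37e-08 and 5.55e-13). For Tnfsf4 it was -0.39 in resting cells (adjusted p = 3.53e-05), and activated cells held 2.8 times the 16 h level at 2 h (adjusted p = 1.96e-12). Tnfsf9 was at -0.74 and -0.23 (adjusted p = 7.69e-10 and 0.000217), the latter -0.15 without the quantile step (adjusted p = 0.301). Ltb was at -1.06 in activated cells (adjusted p = 3.15e-07). In resting cells it was at -0.29 (adjusted p = 0.0415) with overlapping arrays, and the call was lost without replicates 1 or 4 at 2 h or replicates 2, 3 or 4 at 16 h, with values from -0.31 to -0.20. Within slides Tnf was at -1.31, -1.51 and -1.14 in resting cells and at -2.54 in activated cells.

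Put in order, the geometric mean level of Tnf was 24893 and 4597 in activated cells at 2 h (Cy5, Cy3), 1698 and 1634 in resting cells at 2 h (Cy5, Cy3), 748 in activated cells at 16 h (Cy3), 740 and 673 in resting cells at 16 h (Cy5, Cy3) and 519 in activated cells at 16 h (Cy5). Of the neighbours in this order, both resting channels at 2 h and both resting channels at 16 h were compared by the group ratios, which did not pass the test, and both activated channels at 2 h by a ratio that did. The other steps were not tested, and 3 of them set one dye against the other without a dye swap. The place of activated, anti-TIM-3-treated cells at 16 h below the others depends on the normalization, as their ratio to IgG was -0.09 (adjusted p = 0.319) with median centring. With anti-TIM-3, activated cells at 2 h held 47.9 times the Tnf level of activated cells at 16 h, and with IgG 6.1 times.

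The other genes of the pathway came from 5 lists fixed with earlier results of these data known, and counts are for anti-TIM-3 over IgG in activated cells, beside the 33.3% (2 h) and 30.1% (16 h) of all genes called. Median centring moves the median gene as given above, but single genes by other amounts or downward. In activated cells at 2 h it moved Tnfsf14 from 0.30 to 1.085 and Tnfsf11 from 0.22 to 0.17. Beside each count stands how many of the genes lay on the same side of that scaling's median gene. Of 11 other ligand genes 7 were bright enough to test, with 3 higher and 1 lower at 2 h (2 and 1 on the same side) and 2 higher and 1 lower at 16 h (2 and 1). Tnfsf8, the CD30 ligand, rose by 1.29 at 2 h (adjusted p = 4.46e-09) and 0.44 at 16 h (adjusted p = 0.00072). The effect of antigen alone on Tnfsf8 at 2 h was 0.03 (adjusted p = 0.819). Tnfsf10 (TRAIL) rose by 0.42 and 0.41 (adjusted p = 3.7e-05 and 4.77e-05), and Tnfsf11 (RANKL) by 0.22 at 2 h (adjusted p = 2.44e-05, but -0.06 relative to the median gene once arrays are median-centred). Tnfsf13 (APRIL) was at -0.27 at 16 h (adjusted p = 1.2e-05) and at 0.20 with median centring, -0.19 relative to its median gene. The list's median was -0.04 at 2 h and 0.02 at 16 h.

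Of 28 receptor genes 24 were tested, with 9 higher and 5 lower at 2 h (7 and 4 on the same side of the median gene) and 6 higher and 3 lower at 16 h (6 and 3). The median was 0.09 and 0.00. Tnfrsf9, the 4-1BB receptor of the Tnfsf9 product, rose by 0.35 at 2 h (adjusted p = 7.56e-05) and 0.98 at 16 h (adjusted p = 1.05e-09), whereas Tnfsf9 itself was at -0.13 and -0.01. Tnfrsf11b, the decoy receptor osteoprotegerin, rose by 0.37 and 0.47 (adjusted p = 0.00029 and 3.13e-05), and the death receptor gene Fas by 0.43 at 16 h (adjusted p = 1.95e-05). Tnfrsf18 (GITR) was at -0.37 at 2 h (adjusted p = 1.62e-05) and at 0.16 with median centring, -0.06 relative to its median gene. Receptors of TNF, lymphotoxin, LIGHT and OX40 ligand are named for that pairing and not for their size. The TNF receptor gene Tnfrsf1a was at 0.26 at 2 h (adjusted p = 0.00135) and -0.24 at 16 h (adjusted p = 0.00281, and 0.15 with median centring, -0.24 relative to its median gene), and Tnfrsf1b, the other TNF receptor, at 0.16 and 0.19 (adjusted p = 0.0636 and 0.0339). Tnfrsf4, the OX40 receptor, was at 0.20 and 0.21 (adjusted p = 0.00903 and 0.00646). The lymphotoxin beta receptor gene Ltbr was at 0.03 and -0.13 (adjusted p = 0.833 and 0.232) and Tnfrsf14, which encodes HVEM, at 0.06 and -0.14 (adjusted p = 0.694 and 0.312).

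Among 21 genes of receptor signalling 6 were higher and 3 lower at 2 h (6 and 3 on the same side of the median gene), with 4 and 3 at 16 h (3 and 1). The list's median was -0.05 and 0.04. The kinase gene Map3k7 (TAK1) rose by 0.32 at 2 h (adjusted p = 0.000165) and the adaptor Traf5 by 0.28 (adjusted p = 9.15e-05), while Tab1, a partner of TAK1, was at -0.34 (adjusted p = 2.11e-05, and 0.09 with median centring, -0.13 relative to its median gene). Late, at 16 h, the caspase inhibitor Cflar was at -0.44 (adjusted p = 0.00102, and 0.30 with median centring, -0.09 relative to its median gene), Birc3 (cIAP2) at -0.25 (adjusted p = 1.56e-05, and 0.40 with median centring, 0.02 above its median gene) and Traf4 at 0.17 (adjusted p = 0.00943, but -0.01 relative to that median gene). Of 15 genes of NF-kappaB feedback and TNF-induced targets 14 were tested, with 6 higher and 2 lower at 2 h (6 and 1 on the same side of the median gene) and 3 higher and 2 lower at 16 h (3 and 1). The list's median was 0.07 and 0.02. At 2 h Nfkbiz, which encodes a nuclear I-kappaB protein, rose by 1.28 (adjusted p = 9.22e-11), the subunit gene Rel by 0.98 (adjusted p = 2.1e-10) and Nfkb1 by 0.51 (adjusted p = 5.12e-06). At the late time the deubiquitinase gene Tnfaip3 (A20) was at 0.30 (adjusted p = 3.64e-05), Nfkbib at 0.25 (adjusted p = 6.9e-05) and Nfkbie at -0.18 (adjusted p = 0.0031, and 0.45 with median centring, 0.06 above its median gene), both of these encoding I-kappaB proteins.

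Genes that act on TNF mRNA or shed ligands at the surface numbered 12, with 6 higher and 1 lower at 2 h (6 and 1 on the same side of the median gene), and 2 higher and 3 lower at 16 h (2 and 2). The list's median was 0.10 and -0.09. Timp3, an inhibitor of the TNF-cutting protease, rose by 0.82 at 2 h (adjusted p = 1.89e-09). The surface protease gene Adam10 rose by 0.57 at 2 h and 0.36 at 16 h (adjusted p = 0.00015 and 0.00675), and Zfp36l1, whose product promotes mRNA decay, by 0.49 at 2 h (adjusted p = 0.000497). At 16 h its relative Zfp36l2 was at -0.28 (adjusted p = 0.000296, and -0.06 with adjusted p = 0.307 under median centring) and the mRNA-binding protein gene Elavl1 (HuR) at -0.35 (adjusted p = 0.00406, and 0.40 with median centring, 0.0095 above its median gene).

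**Figure D4:**
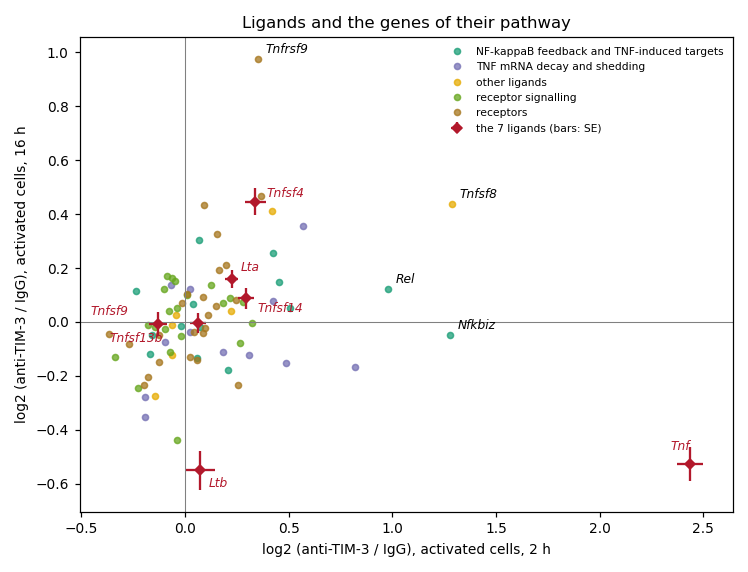
Mean log2 ratio of anti-TIM-3 over IgG in activated cells at 2 h (horizontal) and 16 h (vertical), for the 7 ligand genes (diamonds, with the standard error) and the genes tested in 5 lists of their pathway (circles). With loess normalization Tnf is at 2.44 and -0.53 (-0.09 at 16 h with median centring), and Tnfrsf9 at 0.35 and 0.98.

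The genes whose log2 ratio followed that of Tnf most closely over the 16 arrays, among 16753 genes with a value on every array, were Nfkbiz (Pearson r = 0.99), Tmem88 (0.98), Ccno (0.98), Sgk1 (0.98) and Il13 (0.98). In activated cells at 2 h their ratios were 1.28, 0.53, 1.31, 1.41 and 1.51, and at 16 h -0.05, -0.04, -0.14, -0.16 and 0.01. Edn1 (r = 0.93) and 9530076L18 (0.92) were nearest to Lta, Serinc5 (0.95) and Efnb2 (0.94) to Ltb, and Sla (0.96) and Slc37a3 (0.96) to Tnfsf14. Tnfsf4 was nearest to Mydgf (0.97) and Il1b (0.95), Tnfsf9 to Sfxn2 (0.89) and Nkx2-6 (0.88), and the dim Tnfsf13b to NAP103162-1 (0.84) and BC024139 (0.75). Efnb2, which encodes an ephrin ligand, was at 0.31 in activated cells at 2 h and -0.55 at 16 h. The points of each correlation share arrays, slides and the 4 groups, and it describes likeness only.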

How the data were processed

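Expression was measured on 16 Agilent 2-colour mouse arrays. The deposited scanner files hold spot intensity on a linear scale, the mean of each spot and the median of its local background, from Agilent Feature Extraction 9.1.3.1 per the file headers (version 9 per the submitters' processing notes); the labels name version 5.5 of the dual-color protocol. Agilent's processed intensities and the authors' deposited value table, whose log10 ratios equal those in the scanner files (largest difference 0), served as an alternative and a check.

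Intensities were corrected with normexp (offset 50), normalized by loess within arrays with weight 0 for control and outlier spots, and, for single channels, by Aquantile between arrays (limma 3.58.1, R 4.3.3, data.table package, version 1.17.8). The offset compresses changes of dim genes. Repeated spots were averaged. A probe was kept when, in 1 channel or both, 3 or more of the 4 arrays of a group flagged it well above background (25394 of 41174 probes), and each of 17082 genes is represented by its brightest probe. A single fit of 16 arrays (lmFit, eBayes, two-sided) gave 14 comparisons, with Benjamini-Hochberg adjusted p under 0.05 over all genes as the call, and was tested on simulated data. The number of arrays limits the precision. Members, pathway lists and the naming rule (all members, the 3 largest called changes per list and time, the nearest 5 genes for Tnf and 2 for others) were chosen with earlier results of these data known. Alternatives are in the closing section. Replicate numbers were not taken to pair arrays.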

Additional observations from a re-analysis of the deposited data

Results flagged for a closer look

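In 10 of 28 tests, the response to anti-TIM-3 of a ligand gene differed between activated and resting cells, or between times within one of these, in limma with adjusted p under 0.05. Of all genes, 5.58% and 8.58% were called for activated minus resting at 2 h and 16 h. Between the times 0.287% were called in resting and 17.2% in activated cells. For Tnf the activated minus resting difference of the log2 ratio was 2.38 at 2 h and -0.67 at 16 h, and the 16 h minus 2 h difference in activated cells was -2.96. For Ltb the latter was -0.62. The activated minus resting difference of Tnfsf14 was 0.46 at 2 h and 0.22 at 16 h, and its 16 h minus 2 h difference in activated cells was -0.21. For Tnfsf4 the activated minus resting difference was 0.27 at 2 h and 0.51 at 16 h, and for Lta it was 0.20 at 2 h. Of 28 groups of 4 ratios, none held an array that stood apart by Dixon's test at the 95% level, a test that flags about 1 in 20 groups by chance.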

How the results depend on the processing

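Of 1064 values under alternatives other than leaving out 1 array, 996 kept direction and side of the threshold, 19 changed sign with no call in either, 27 lost the call, 15 gained one and 7 reversed. All 7 reversals came with median centring in place of loess, where the median gene moves too: Ltb was at 0.28 in resting and 0.14 in activated cells at 16 h, Tnfsf9 at 0.0712 and 0.28 in activated cells at 2 h and 16 h, Tnfsf14 at 0.37 and 0.40 in resting cells at 2 h and 16 h, and Tnfsf4 at 0.36 in resting cells at 16 h. The number of ligand genes called in resting cells became 5 at 2 h and 5 at 16 h with median centring, 0 and 0 when only the compared groups were fitted, and at 16 h 0 with Agilent's processed signals and 0 without the 3 resting arrays that resemble each other, an alternative chosen after seeing the data. In resting cells median centring called 61.3% of all genes at 2 h and 73.2% at 16 h. Fits of the compared groups called 375 and 1729 of 17081 genes there. At 16 h Agilent's processed signals called 3051 of 17081 genes, and leaving out the 3 resting arrays 523 of 17079. Fitting only the compared groups gave 2 ligand genes for activated minus resting at 2 h, beside 571 of 17081 genes. Leaving out quantile normalization gave 2 for the Cy5 antigen effect at 16 h, beside 633 of 17081. The cause was not tested. Leaving out 1 array at a time, the counts ran, for resting and then activated cells, from 0 to 1 and 4 to 5 at 2 h and from 0 to 1 and 4 to 4 at 16 h. Of all genes, these fits called 7.39% to 12% in resting and 22.6% to 29.6% in activated cells at 2 h. At 16 h they called 8.49% to 21.4% in resting and 20.6% to 25.4% in activated cells. The counts of ligand genes ran from 2 to 4 and 2 to 3 for activated minus resting at 2 h and 16 h, from 0 to 1 and 3 to 3 for 16 h minus 2 h in resting and activated cells, from 5 to 6 and 3 to 3 for the Cy3 antigen effect, from 6 to 6 and 3 to 4 for that in Cy5, and from 4 to 5 and 5 to 5 for the Cy3 time effect. The share of all genes, in the same order, was 3.37% to 6.42% and 5.05% to 9.87% for activated minus resting. For 16 h minus 2 h it was 0.135% to 11.5% and 12.9% to 15.8%. The Cy3 antigen effect had 39.6% to 42.5% and 9.26% to 11.1%, and that in Cy5 41.9% to 43.7% and 13.1% to 20.3%. The Cy3 time effect had 43% to 46.1% and 57% to 58.3%.

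Counts of all genes called moved by more than 1.5 times in places. In resting cells 2389 genes were called at 2 h and 3695 at 16 h, with 375 to 10471 and 523 to 12497 under alternatives. In activated cells 5696 and 5147 became 11071 and 13563 with median centring. For activated minus resting 953 and 1465 became as few as 571 and 641, and for 16 h minus 2 h 2937 in activated cells became 5328 with median centring. In resting cells 49 became 299 with median centring and 275 with a replicate block, and 1957, 634 and 316 without replicate 3 at 2 h and without replicates 4 and 2 at 16 h. Without quantile normalization the antigen effect at 16 h was called in 262 genes in Cy3, against 2105 with it, and in 633 in Cy5, against 3290. The lowest count for the resting time effect was 4645, against 8010.

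Same-numbered arrays had a median correlation of 0.12, with 12 of 24 pairs over 0.1, and arrays of other numbers -0.04, with 23 of 72. Since not every same-numbered pair was over 0.1, the numbers were not taken to pair the arrays. With a replicate block, no call of a member changed. The ligand genes called were 1 and 5 at 2 h and 2 and 4 at 16 h (resting, activated). Of all genes, that fit called 16.1% and 35.7% at 2 h, and 25.2% and 32.3% at 16 h. The Tnf ratio of activated cells stayed at 2.44 and -0.53 (adjusted p = 9.45e-13 and 2.03e-05). Dim signal over background limits Lta and Tnfsf13b.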
